A study of Mus musculus with 20 samples.

Results

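The genes described here encode the enzymes that conjugate, hydrolyse, reduce and oxidise steroids, lipids, aldehydes and foreign compounds. They comprise the glutathione S-transferases, microsomal glutathione S-transferases, UDP-glucuronosyltransferases, sulfotransferases, carboxylesterases, aldo-keto reductases and aldehyde dehydrogenases. Members were taken by symbol alone, as every gene whose single annotated symbol starts with Gsta, Gstm, Gstp, Gstt, Gstk, Gsto, Gstz, Mgst, Ugt1, Ugt2, Sult, Ces, Akr1 or Aldh. The retinaldehyde dehydrogenases Aldh1a1, Aldh1a2 and Aldh1a3 were left out. The rule found 94 of 19938 genes with a single symbol on the array, and 58 of these 94 stood among the 15651 genes bright enough to test.

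Glutathione S-transferases join glutathione to reactive electrophiles, sulfotransferases move a sulfate group from the activated donor PAPS to steroids and phenols, and UDP-glucuronosyltransferases do the same with glucuronic acid. Carboxylesterases cleave esters and stored lipid, aldo-keto reductases turn aldehydes and ketosteroids into alcohols, and aldehyde dehydrogenases oxidise aldehydes to acids. In the testis, Leydig cells make androgen through mitochondrial and microsomal steps that release reactive oxygen and aldehydes, and estrogen sulfotransferase has long been known as one of their abundant enzymes.

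All arrays came from adult 129/C57BL6 male mice that were RiboTag-positive and Cyp17icre-positive. RiboTag is an allele of a ribosomal protein that carries an HA tag once Cre recombinase has acted, and Cre driven by Cyp17 directs the tag to Leydig cells. Every animal had been dosed with WIN 18,446, a blocker of retinoic acid synthesis (100 µg/g, once a day for 7 days from 2 dpp), and then with 200 µg of all-trans retinoic acid (atRA) at 9 dpp, which brings the seminiferous tubules into step. Testes were collected 42 to 50 days later in 5 windows named by the stages of the seminiferous cycle they cover. These run XII-II/III, then II/III-VI and VI-VIII, followed by VIII-X and at last X-XII. From 1 homogenized testis per time point came a total testis sample (50 µl of homogenate) and an immunoprecipitate with HA antibody (IP), meant to hold the RNA of tagged polysomes. With 2 replicates of each there were 10 groups and 20 arrays. No untreated or Cre-negative animals were among them, and the labels do not say whether replicates were separate animals.

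Values are log2 intensities, and a level of 1 probe set cannot be set against that of another. The 4 sets of 5 arrays (fraction and replicate) appear to have been normalized separately, judged by exactly equal values within sets, and their median log2 intensity was 9.74 and 9.98 in the IP sets against 9.42 in both total sets. The highest log2 value of an array lay between 14.44 and 14.74. The IP was enriched for Leydig cell markers, though markers of other cells remained. Of 8 Leydig cell markers 6 were tested and all 6 were higher in IP, with a median difference of 2.81 log2, and their summed intensity was 76649 to 93766 in the IP arrays against 15232 to 21689 in total testis. Spermatid markers remained in the IP at a summed intensity of 35627 to 68254, against 72277 to 89881 in total testis. Sertoli cell markers were higher in IP in 6 of 9 cases and lower in none (median 0.40), with sums of 29653 to 49609 against 22132 to 25309. Of all tested genes 50.1% were higher on this scale, with a median difference of 0.20 log2 that became -0.24 after centring each array on its median. Small differences thus depend on the scale. Centring shifts the difference of every gene by the same amount. Among the Sertoli cell markers, Trf (1.36), Amhr2 (0.90), Clu (0.86) and Gata1 (0.86) exceeded that shift and stay above 0. The other Sertoli cell markers, at 0.40 (Fshr) or less, do not. The part of Sertoli cell RNA in the differences below was not tested.

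Selected upstream sequences are shown first, because the question for genes that are high together is often which elements their promoters share. RefSeq promoter windows (assembly GRCm38.p6, 250 bases before to 50 after a start site) were matched to 81 of the 94 members. Both strands were searched for TGACNNNGC, the core of the antioxidant response element through which Nfe2l2 acts on many glutathione S-transferase genes, and for CAAGGTCA, a sequence recognised by the steroidogenic factor Nr5a1. The antioxidant core occurred in windows of 7 of the 81 members, or 7.37% of their 95 windows, against 12.39% of all 32851 windows of that length. The Nr5a1 sequence occurred in 1 member, or 1.05% of windows, against 1.56% of all. A match here is a run of letters and not a shown binding site. The 250 bases upstream of the start are printed 5′ to 3′ on the gene's own strand, with the match in capitals. Gsta3 (chr1:21240335-21240584, plus strand), Mgst1 (chr6:138140277-138140526, plus strand) and Akr1cl (chr1:65032760-65033009, minus strand) stand for members high in IP with the antioxidant core. Gstm5 (chr3:107895604-107895853, plus strand) holds it too and was lower in IP. Aldh3b1 (chr19:3929779-3930028, minus strand) is the member with the Nr5a1 sequence.
Gsta3: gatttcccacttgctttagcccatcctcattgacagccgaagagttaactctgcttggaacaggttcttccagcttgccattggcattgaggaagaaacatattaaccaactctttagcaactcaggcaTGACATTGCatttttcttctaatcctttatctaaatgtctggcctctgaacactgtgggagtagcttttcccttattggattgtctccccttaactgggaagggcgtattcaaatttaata
Mgst1: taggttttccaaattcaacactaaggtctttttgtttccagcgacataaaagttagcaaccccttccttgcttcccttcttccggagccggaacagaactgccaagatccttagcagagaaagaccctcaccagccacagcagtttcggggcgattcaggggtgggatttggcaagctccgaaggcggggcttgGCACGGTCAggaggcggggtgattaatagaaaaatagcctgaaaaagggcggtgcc
Akr1cl: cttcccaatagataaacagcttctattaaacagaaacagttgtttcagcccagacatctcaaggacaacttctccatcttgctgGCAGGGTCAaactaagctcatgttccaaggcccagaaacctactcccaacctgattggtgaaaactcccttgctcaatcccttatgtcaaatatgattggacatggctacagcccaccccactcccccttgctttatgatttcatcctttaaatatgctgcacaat
Gstm5: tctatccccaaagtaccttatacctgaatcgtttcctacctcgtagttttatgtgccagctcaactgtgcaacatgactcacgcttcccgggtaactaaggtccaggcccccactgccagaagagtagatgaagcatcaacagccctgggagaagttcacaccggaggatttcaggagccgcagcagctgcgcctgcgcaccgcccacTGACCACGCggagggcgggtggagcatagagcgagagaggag
Aldh3b1: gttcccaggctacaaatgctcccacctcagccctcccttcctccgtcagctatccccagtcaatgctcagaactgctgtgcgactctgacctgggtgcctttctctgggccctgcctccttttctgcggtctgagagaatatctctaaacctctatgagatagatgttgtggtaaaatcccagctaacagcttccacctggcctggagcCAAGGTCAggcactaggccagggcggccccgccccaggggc

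The matches began 121 bases before the start in Gsta3, 56 in Mgst1, 166 in Akr1cl and 42 in Gstm5, and in Mgst1 and Akr1cl they lay on the opposite strand, so that the capitals read as the reverse complement. In Aldh3b1 the match began 41 bases before the start. Members that were as high in IP as these, such as Sult1e1, Gstk1 and Aldh1l1, had a window without either run of letters.

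The first comparison asked how strongly each enzyme transcript was enriched on Leydig cell polysomes over the homogenate they were drawn from. Of the 58 tested members, 45 were higher in IP, 7 were lower and 6 were not called (limma, two-sided, adjusted p under 0.05 over all tested genes). Calls were common among all genes, 50.1% of which were higher and 26.6% lower. Of the members, 8 passed the brightness filter through the IP arrays alone (Akr1c14, Aldh1l2, Aldh3a1, Aldh5a1, Ces1b, Ces2g, Gstp3 and Sult2b1), which favours a higher call for them. The members lay further out than the bulk, with a median difference of 1.36 log2 against 0.20 for all tested genes. A difference of at least 2 log2, or 4-fold, was reached by 20 members and by 5.33% of all genes. In 40 members every IP array lay above every total testis array, which held for 32.8% of all genes, and in 5 members every IP array lay below, against 10.1%. In whole testis RNA, fewer cells of a type and less RNA per cell cannot be told apart.

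**Figure D1:**
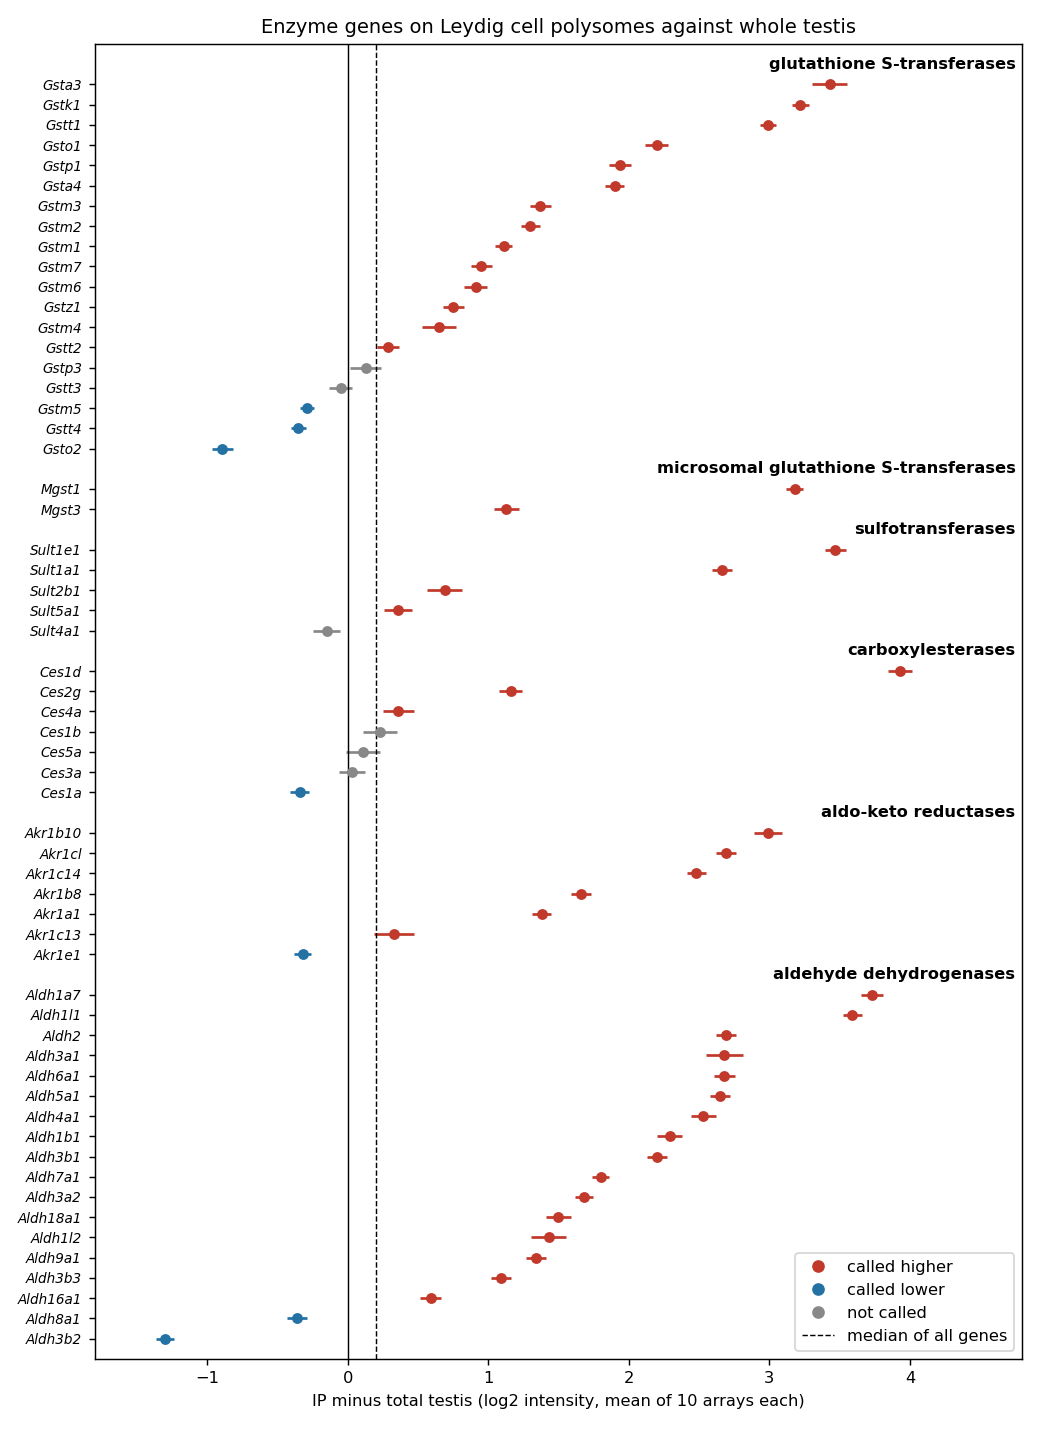
Difference between IP and total testis (log2 intensity, mean of 10 arrays each, bars are the SE of the fit) for the 58 tested enzyme genes by family. Each family but the microsomal transferases spans from far above the median of all genes (dashed line, 0.20) to below it, with Ces1d highest at 3.93 and Aldh3b2 lowest at -1.30.

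These counts move with the scale on which IP and total testis are set side by side. The median of all genes is 0.20 log2 as deposited, -0.11 after quantile normalization and -0.24 after centring each array on its median. Of the called members 86.5% were higher as deposited, 79.2% after quantile normalization (42 higher, 11 lower) and 74.5% after median centring (41 higher, 14 lower), while for all genes the share went from 65.3% to 42.4% and 34.8%. Taken alone, the replicate 1 arrays gave 41 members higher and 11 lower, and the replicate 2 arrays 48 and 7.

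Among the 19 glutathione S-transferases, all of which were tested, 14 were higher in IP, 3 lower and 2 not called, with a median difference of 0.95. Gsta3, an alpha class transferase, ran from 12.52 to 13.34 in the IP arrays (median 12.92) and from 8.82 to 9.89 in total testis (median 9.66). The arrays of the fractions were far apart, and the difference was 3.43 ± 0.125 log2 (SE, 10 arrays per fraction, adjusted p = 1.54e-13), or 10.8-fold. Gstk1, the kappa class enzyme of mitochondria and peroxisomes, read 13.19 to 13.57 in IP (median 13.38) and 9.76 to 10.50 in total testis (median 10.13), a difference of 3.22 ± 0.0625 (adjusted p = 1.92e-16). Gstt1 of the theta class followed at 2.99, Gsto1 of the omega class at 2.20, Gstp1 of the pi class at 1.94 and Gsta4 at 1.90. The mu class sat lower and closer together, with Gstm3, Gstm2, Gstm1, Gstm7, Gstm6 and Gstm4 between 0.65 and 1.37 on the brightest probe set of each. A dimmer Gstm3 probe set, at means of 10.06 in IP and 8.38 in total testis, gave 1.67. Mu class genes are near-identical copies in part, and how far their probes share signal was not tested. Gstz1, which isomerises maleylacetoacetate in tyrosine breakdown, was higher by 0.75.

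The 3 members of this class that were lower in IP belonged to the omega, theta and mu classes, each of which also held members that were higher. Gsto2, which like Gsto1 reduces dehydroascorbate, read 11.32 to 12.41 in IP (median 12.12) and 12.52 to 13.11 in total testis (median 13.02). Its highest IP array stayed below its lowest total testis array, and the difference was -0.89 ± 0.0749 (adjusted p = 8.96e-09). Gstt4 differed by -0.35 ± 0.0539 and Gstm5 by -0.29 ± 0.0513, both without overlap between the fractions. Spermatocyte markers were lower in IP in 7 of 7 cases (median -0.81) and spermatid markers in 6 of 8 (median -0.95), so Gsto2 lay near the germ cell lists. The part of germ cell RNA in these differences was not tested. Gstt3 (-0.05) and Gstp3 (0.13) were not called. Gstt2 was called higher at 0.29, but its sign turned after quantile normalization (-0.12) and median centring (-0.15), and the call was lost when the normalization sets entered as a random block (adjusted p = 0.233).

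Of the 3 microsomal transferases, which are membrane proteins, Mgst1 and Mgst3 were tested and both were higher in IP. Mgst1, abundant in the outer mitochondrial membrane and endoplasmic reticulum, spanned 13.24 to 13.45 over the 10 IP arrays (median 13.39) and 9.74 to 10.48 in total testis (median 10.22). That is a difference of 3.18 ± 0.0625 (adjusted p = 2.1e-16). Mgst3 read 9.81 to 10.57 in IP (median 10.05) and 8.70 to 9.12 in total testis (median 9.02), a smaller gap of 1.13 ± 0.0893 (adjusted p = 3.96e-09). Mgst2 was listed in every array but below the floor for testing, at set means of 7.62 to 8.04.

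Of 16 sulfotransferases 5 were tested, and 4 of those were higher in IP. Sult1e1, the estrogen sulfotransferase, read 13.28 to 13.57 in IP (median 13.43) and 9.62 to 10.11 in total testis (median 10), with a narrow spread in both fractions. The difference was 3.47 ± 0.0731 (adjusted p = 4.23e-16), or 11.1-fold. Sult1a1, the phenol sulfotransferase, read 11.47 to 11.96 in IP (median 11.67) and 8.98 to 9.10 in total testis (median 9.07), a difference of 2.66 ± 0.0714. Sult2b1, which sulfates cholesterol, was higher by 0.69 ± 0.124, with 0.28 between the replicate 1 arrays and 1.10 between the replicate 2 arrays. Sult5a1 was called at 0.36, a call that was lost with the random block (adjusted p = 0.0862) and turned in sign to -0.08 after median centring. Sult4a1, an enzyme best known from brain, was dim, at 7.89 to 8.48 in IP (median 8.16) and 8.14 to 8.40 in total testis (median 8.34), and was not called (-0.15 ± 0.0961, adjusted p = 0.167). The other 11 sulfotransferases were not listed in all arrays. Sult1b1 and Sult1d1, whose genes lie beside Sult1e1, were listed in the first IP set alone, at means of 5.57 and 5.72. None of the 8 UDP-glucuronosyltransferases with a symbol of their own could be tested. Of these, 5 were listed in the first IP set alone, and Ugt2b37, listed in all arrays, had set means of 7.42 to 8.12 and stayed below the floor of 8.2 log2.

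Of 16 carboxylesterases 7 were tested, of which 3 were higher in IP, 1 was lower and 3 were not called. Ces1d, a hydrolase of stored triacylglycerol, read 12.98 to 13.41 in IP (median 13.20) and 9.05 to 9.68 in total testis (median 9.27). It had the largest difference of the members, 3.93 ± 0.0835 (adjusted p = 4.44e-16), or 15.2-fold, and it was nearly equal between the replicate 1 arrays (3.94) and the replicate 2 arrays (3.93). Ces2g read 8.32 to 9.18 in IP (median 8.80) and 7.54 to 7.71 in total testis (median 7.67), a difference of 1.16 ± 0.0801. Ces4a was called at 0.36, though the replicate 1 arrays gave 0.02 and median centring -0.07. Ces1a went the other way, with 7.97 to 8.52 in IP (median 8.35) and 8.42 to 8.87 in total testis (median 8.65), a difference of -0.34 ± 0.0679 (adjusted p = 0.000248). Its fractions overlapped.

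**Figure D2:**
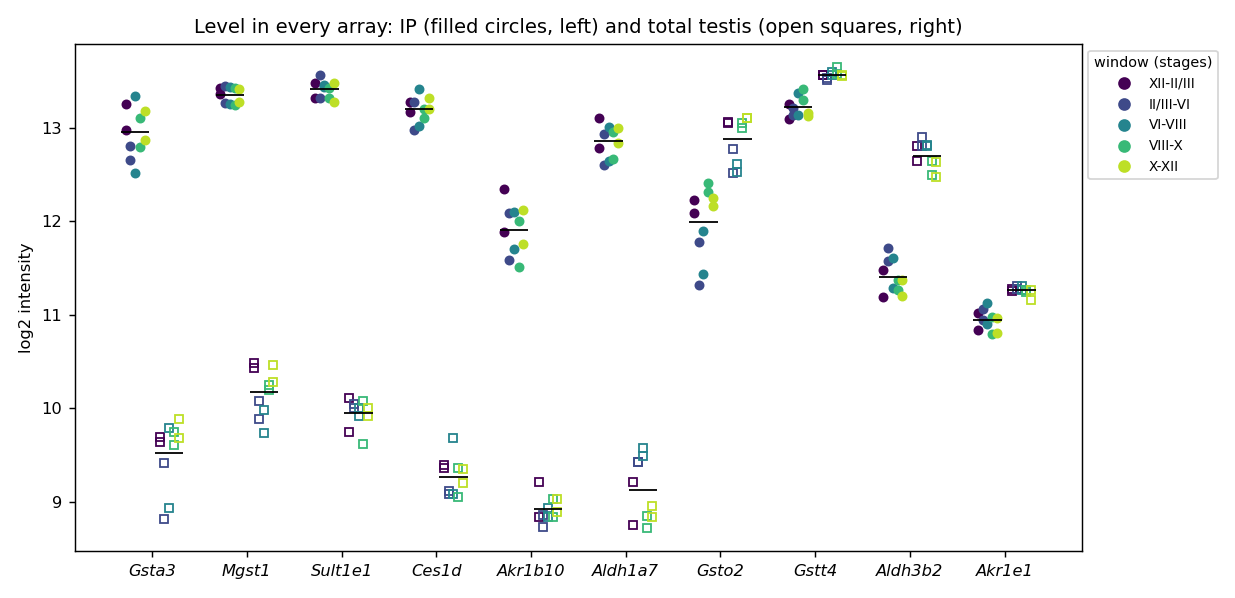
Log2 intensity in each of the 20 arrays for 10 enzyme genes, IP arrays as filled circles on the left and total testis arrays as open squares on the right of each gene, coloured by window, with the mean as a line. Gsta3, Mgst1, Sult1e1, Ces1d, Akr1b10 and Aldh1a7 lie over 2 log2 units higher in every IP array than in any total testis array, while Gsto2, Gstt4, Aldh3b2 and Akr1e1 lie lower.

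Among 14 aldo-keto reductases 7 were tested, and 6 of these were higher in IP. Akr1b10, a reductase of retinaldehyde and lipid aldehydes, read 11.51 to 12.35 in IP (median 11.94) and 8.73 to 9.21 in total testis (median 8.88). The difference was 2.99 ± 0.0992 (adjusted p = 5e-14). Akr1cl, an aldo-keto reductase of the Akr1c type, read 13.54 to 13.85 in IP (median 13.68) and 10.76 to 11.27 in total testis (median 10.99), a difference of 2.69 ± 0.0731 (adjusted p = 4.87e-15). Akr1c14, the reductase that forms androstanediol from dihydrotestosterone, was higher by 2.48, Akr1b8 by 1.66 and the general aldehyde reductase Akr1a1 by 1.38. Akr1c13 was called at 0.33 ± 0.145 (adjusted p = 0.0467), but the replicate 1 arrays gave -0.19 and the replicate 2 arrays 0.86, and median centring turned it to -0.11. That call was lost when IP and total arrays were paired (adjusted p = 0.0957), with the random block (0.178) and in 10 of the 20 fits that left out 1 array, most clearly without IP II/III-VI replicate 2 (0.114). Akr1e1, which reduces anhydrofructose, read 10.79 to 11.13 in IP (median 10.95) and 11.16 to 11.31 in total testis (median 11.27), lower in IP by 0.32 on the log2 scale, with an SE of 0.0579, and without overlap. Of the 7 untested reductases, Akr1c12, Akr1c18, Akr1c19 and Akr1c21 were listed in the first IP set alone.

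All 18 aldehyde dehydrogenases were tested, and 16 were higher in IP and 2 lower, at a median difference of 2.00. Aldh1a7, a close relative of the retinaldehyde dehydrogenase Aldh1a1, read 12.60 to 13.10 in IP (median 12.88) and 8.72 to 9.57 in total testis (median 9.08). The difference was 3.73 ± 0.0807 (adjusted p = 4.95e-16), or 13.3-fold; whether probes of Aldh1a7 also take up Aldh1a1 transcript was not tested. Aldh1l1, which oxidises formyltetrahydrofolate, read 12.87 to 13.32 in IP (median 13.16) and 9.38 to 9.69 in total testis (median 9.51), a difference of 3.59 ± 0.0683 (adjusted p = 1.72e-16). Its mitochondrial counterpart Aldh1l2 was higher by 1.43. The mitochondrial acetaldehyde enzymes Aldh2 and Aldh1b1 were higher by 2.69 and 2.29. Of the enzymes of amino acid breakdown, Aldh6a1 (valine) was higher by 2.68, Aldh4a1 (proline) by 2.53 and Aldh7a1 (lysine) by 1.80. Aldh5a1 of GABA breakdown was higher by 2.65, against a total testis level below the floor, and Aldh18a1, which makes proline, by 1.5. Of the enzymes that oxidise fatty and lipid aldehydes, Aldh3a1 was higher by 2.68, Aldh3b1 by 2.20, Aldh3a2 by 1.68 and Aldh3b3 by 1.09.

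Aldh3b2, another enzyme of lipid aldehydes, was the member with the lowest difference. It read 11.19 to 11.71 in IP (median 11.37) and 12.47 to 12.90 in total testis (median 12.73), so that all 10 IP arrays lay below all total arrays. The difference was -1.30 ± 0.0655 (adjusted p = 1.1e-11), or 2.46-fold higher in total testis. Aldh8a1, an enzyme of tryptophan breakdown, was lower by 0.36 on the log2 scale and passed the filter in total testis alone; its call was lost with the random block (adjusted p = 0.0553).

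Adjacent family members could differ sharply. In the RefSeq gene order (GRCm38.p6), 46 pairs of members are direct neighbours, and in 15 pairs both were tested. Both neighbours were higher in IP in 8 pairs, and in 5 pairs 1 was higher and the other lower. Pairs of other genes were not counted, and with 50.1% of all genes higher and 26.6% lower, opposite calls also arise between unrelated genes. Of the 5 pairs, Gstt4 and Gstt2 overlapped in their ratio (2.04 to 2.79 in IP, 2.25 to 3.79 in total testis). The ratio of the neighbours within each array kept the fractions apart in 8 of the 15 pairs. This ratio does not move when all values of an array shift by the same log2 amount, but quantile normalization can move it. The share of other gene pairs kept apart in this way was not counted. Pairs with Gstm3 rest on the brighter of its probe sets. Gsto1 minus Gsto2 was -1.72 to -0.52 in the IP arrays and -4.65 to -3.97 in total testis, which set Gsto1 3.09 log2 further up in IP than its neighbour. For Gstt1 minus Gstt4 the values were -1.48 to -0.81 in IP and -4.71 to -4.45 in total testis. For Aldh3b3 minus Aldh3b2 they were 0.69 to 1.35 against -1.56 to -1.06. That last pair rests on the brightest of the 3 Aldh3b3 probe sets (difference 1.09), since the dimmer probe sets gave -0.53 and -0.42. Gstm5 minus Gstm7 was 0.02 to 0.47 in IP and 1.02 to 1.61 in total testis, with Gstm5 at the end of a row in which the other 6 mu class genes were all higher in IP.

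**Figure D3:**
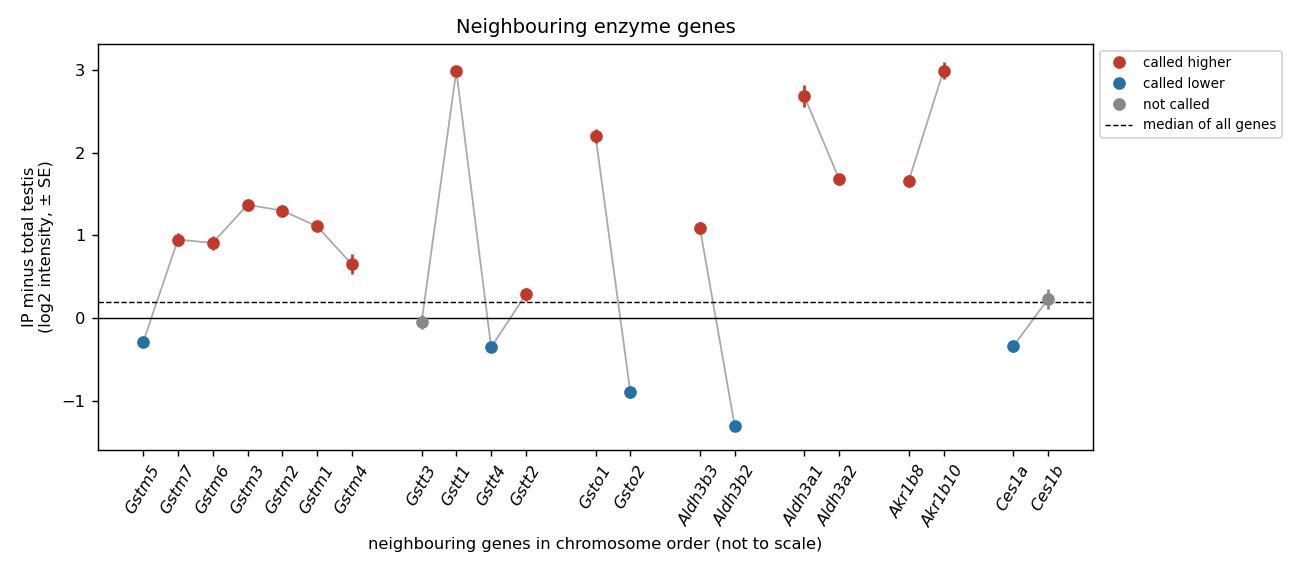
Difference between IP and total testis (log2 intensity ± SE) for enzyme genes that are neighbours on a chromosome, in chromosome order and joined by lines. In the theta row Gstt1 stands at 2.99 between Gstt3 at -0.05 and Gstt4 at -0.35, and in the mu row only Gstm5 lies below 0, while the Gsto and Aldh3b pairs cross 0.

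The genes that supply these enzymes were mostly higher in IP as well. In the lists chosen for cofactor supply, 5 of 6 genes of glutathione supply were higher (median 1.25), among them the cystine carrier Slc7a11 (3.11 ± 0.122), the catalytic subunit of glutamate-cysteine ligase Gclc (1.51 ± 0.0956) and glutathione reductase Gsr (1.4 ± 0.0674). The modifier subunit Gclm read 0.15 and was not called. All 5 genes of sulfate supply and hydrolysis were higher (median 1.84), with the PAPS synthases Papss2 at 3.06 ± 0.086 and Papss1 at 2.44 ± 0.0703. All 4 genes of glucuronate supply and hydrolysis were higher too (median 1.59), including the glucuronidase Gusb (2.63 ± 0.0727) and UDP-glucose dehydrogenase Ugdh (1.80 ± 0.0657). Of 14 other enzymes of oxidation, reduction and conjugation 13 were higher (median 1.77), led by the quinone reductase Nqo1 (3.72 ± 0.0845) and the alcohol dehydrogenase Adh1 (3.67 ± 0.065). The 5 tested regulators were all higher (median 0.95), with Nfe2l2 at 1.72 ± 0.0669. These shares stand beside 50.1% of all genes called higher.

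The windows address whether the enzymes of Leydig cells follow the stage of the neighbouring tubules. In IP, 3 of the 58 members differed between windows (limma F test, adjusted p under 0.05), against a background of 8.87% of all genes. The fit shares 1 spread over both fractions. Weights estimated per array, lower where arrays scatter more, were 0.37 to 0.61 in IP and 1.65 to 2.93 in total testis. Fitted alone, the IP arrays gave 1 member and 4.87% of all genes. The median amplitude of the members, the highest minus the lowest window mean, was 0.23 log2, and that of all genes 0.24. The replicate was also entered as a block within each fraction, which allows an offset between its replicate sets and does not pair IP with total testis. With this block 7 members were called in IP against 19.2% of all genes. They were the 3 above plus Akr1b10, Akr1c13, Ces1b and Gstt1.

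Ces5a, a carboxylesterase secreted in the male tract, had the widest swing in IP, on the brighter of its probe sets. Its IP replicates read 10.16 and 10.05 in II/III-VI and 9.53 and 9.5 in VI-VIII, against 8.38 and 9.06 in XII-II/III, 8.22 and 9.07 in VIII-X and 8.17 and 8.93 in X-XII. Total testis gave 10.07 and 10.15 in II/III-VI and 9.96 and 9.53 in VI-VIII, against 8.26 to 8.54 in the other windows. Both fractions were thus high in the same windows, and II/III-VI stood above the mean of the other 4 windows by 1.25 ± 0.216 in IP (adjusted p = 0.00239) and by 1.39 ± 0.216 in total testis (adjusted p = 0.000162). Over all windows IP and total testis did not differ beyond error on this probe set (0.11 ± 0.122, adjusted p = 0.427). A dimmer Ces5a probe set, at means of 7.74 in IP and 7.18 in total testis, gave 0.56, and its windows were not tested on their own.

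In the IP arrays Gsto2 read 12.41 and 12.31 in VIII-X, 12.16 and 12.25 in X-XII and 12.09 and 12.23 in XII-II/III, against 11.78 and 11.32 in II/III-VI and 11.44 and 11.90 in VI-VIII. Its arrays in these last windows lay below those of the other 3 windows, and VIII-X, the highest, stood 0.47 ± 0.132 above the others (adjusted p = 0.00915). In total testis Gsto2 also read lowest in II/III-VI (12.77 and 12.52) and VI-VIII (12.53 and 12.61), against 13.05 and 13.06 in XII-II/III, 13.05 and 13.0 in VIII-X and 13.11 and 13.11 in X-XII, and was not called there (adjusted p = 0.0619). Summed spermatid markers in IP averaged 65630 in VIII-X, 58141 in X-XII and 56794 in XII-II/III against 46177 in II/III-VI and 47502 in VI-VIII, and 6 of the 8 spermatid markers differed between windows in IP. The part of spermatid RNA in the Gsto2 windows was not tested.

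Akr1c14 read 10.30 and 10.64 in VI-VIII in IP, against 9.96 and 10.24 in XII-II/III, 9.80 and 10.02 in II/III-VI, 9.68 and 9.66 in VIII-X and 9.91 and 9.65 in X-XII. VI-VIII stood 0.60 ± 0.117 above the others (adjusted p = 0.00979), and both its arrays were above all others. In total testis this reductase stayed between 7.40 and 7.61, below the filter. The call was lost without IP VI-VIII replicate 2 (adjusted p = 0.0781), with array weights (0.135) and when the IP arrays were fitted alone (0.205). Array weights, which were equal for both arrays of each group and so cannot mark out a single array, also ended the IP window calls of Ces5a (0.0702) and Gsto2 (0.11). The fit of IP arrays alone ended that of Gsto2 (0.15), and averaging both Ces5a probe sets that of Ces5a (0.054).

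Gstt1 was among the members called in IP with the block alone. It read 12.27 and 12.34 in XII-II/III and 11.68 to 12.18 in the other windows, a gap of 0.38 ± 0.103 (adjusted p = 0.112 without and 0.00876 with the block). Of the 45 members higher in IP, 28 (62.2%) had their highest IP mean in XII-II/III, against 36.5% of all genes called higher. None of these 28 was called over the windows in IP without the block, and the share is a description without a test. Summed Leydig cell markers in IP averaged 85303 in XII-II/III and 81344 to 87202 in the other windows.

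In total testis, 7 members differed between windows, against 18.4% of all genes, and with the replicate block 15 did, against 36.7%. Fitted alone, the total testis arrays gave 13 members and 30.6% of all genes. Besides Ces5a the 7 were Gstt2, Gstt3, Gstk1, Mgst1, Aldh1a7 and Aldh3b1, with the block adding Akr1c13, Akr1cl, Aldh1b1, Aldh8a1, Aldh9a1, Gstm4, Gstm7 and Gstz1. Gstt2 and Gstt3 of the theta class were high in different windows. Gstt2 read 10.85 and 11.25 in II/III-VI and 11.27 and 11.14 in VI-VIII, against 9.78 to 10.49 in the other windows, with VI-VIII 0.84 ± 0.139 above the rest (adjusted p = 0.000118). Gstt3 was lowest in VI-VIII (10.65 and 10.46) and highest in XII-II/III (11.71 and 12.04), which stood 0.61 ± 0.149 above the rest (adjusted p = 0.00036), with an amplitude of 1.32. In IP neither gene was called (Gstt2 0.266, Gstt3 0.89), although Gstt2 was again highest in II/III-VI and VI-VIII.

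A group of 3 members with a strong excess in IP also read high in II/III-VI and VI-VIII in total testis. Aldh1a7 read 9.43 and 9.42, then 9.57 and 9.49 in these windows and 8.72 to 9.21 in the others (VI-VIII 0.50 ± 0.143 above the rest, adjusted p = 0.0165). Aldh3b1 read 11.09 and 11.19, then 11.10 and 11.24, against 10.42 to 10.64 (VI-VIII 0.49 ± 0.128 above, adjusted p = 0.00499). Gstk1 read 10.32 and 10.50, then 10.33 and 10.43, against 9.76 to 10.15 (II/III-VI 0.34 ± 0.11 above, adjusted p = 0.0141). In each of the 3, the 4 arrays of these windows lay above all 6 others. The 3 were picked from members called over these windows, which favours such a separation, and its share among all genes was not counted. Mgst1 ran the other way, with 10.48 and 10.43 in XII-II/III and 10.46 and 10.28 in X-XII, against 10.08 and 9.88 in II/III-VI and 9.74 and 9.98 in VI-VIII (XII-II/III 0.35 ± 0.11 above the rest, adjusted p = 0.0177). Summed Leydig cell markers in total testis averaged 19027 in II/III-VI and 19301 in VI-VIII, between 17494 in VIII-X and 21543 in X-XII. Star, 1 of these markers, itself differed between windows in total testis (limma F test, adjusted p = 0.00446). The part of Leydig cell content in the windows of these enzymes was not tested. In fits that left out 1 total testis array the calls of Aldh1a7 (up to 0.0712, without VI-VIII replicate 1), Gstk1 (0.079, without VIII-X replicate 2) and Mgst1 (0.102, without VI-VIII replicate 1) were lost 3 times each.

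**Figure D4:**
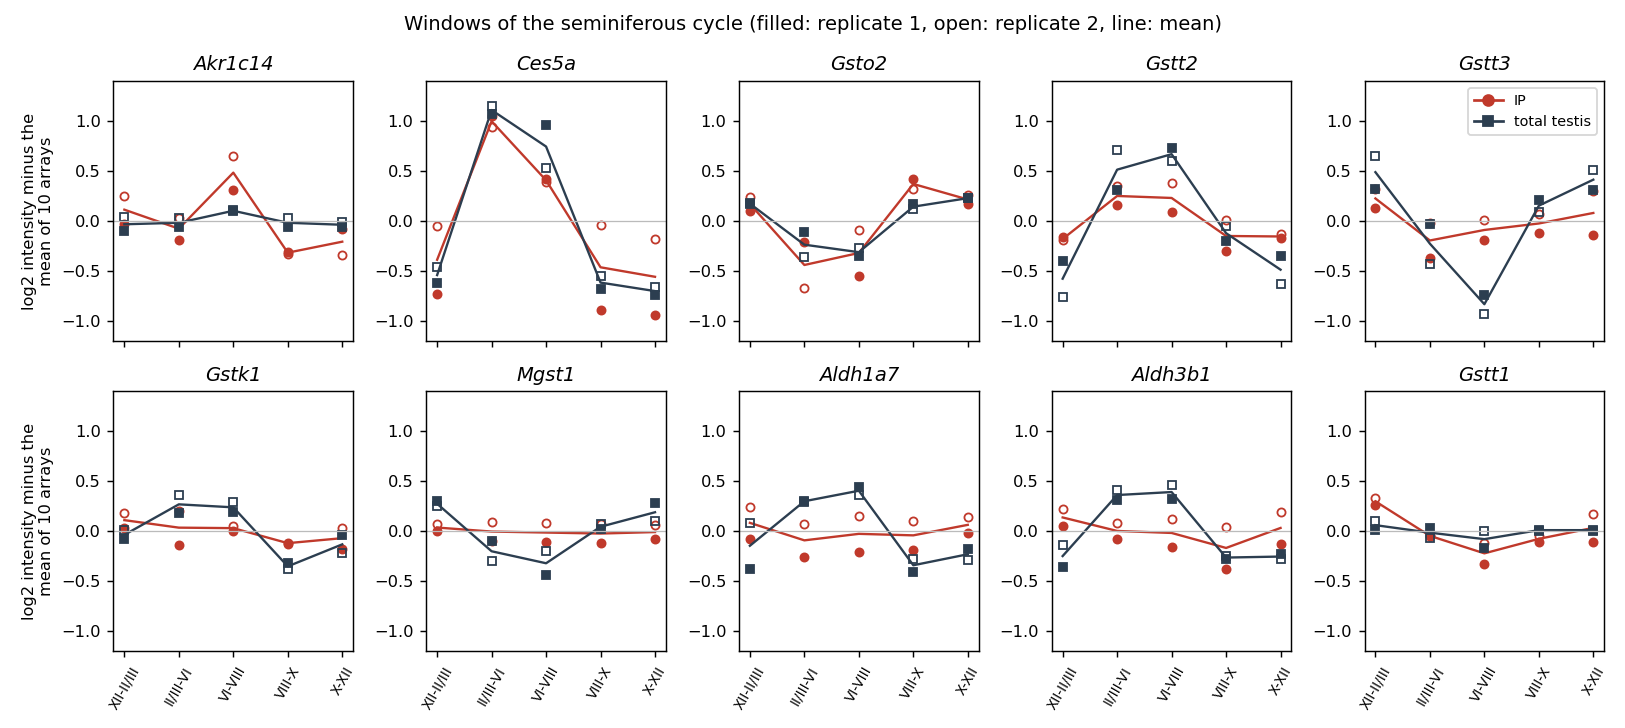
Log2 intensity minus the mean of the fraction's 10 arrays, by window, for 10 enzyme genes (IP red circles, total testis dark squares, replicate 1 filled, replicate 2 open, lines join means). Ces5a is high in II/III-VI and VI-VIII in both fractions, Gstt2 is high and Gstt3 low in VI-VIII in total testis, and Aldh1a7 and Aldh3b1 rise in total testis in windows where their IP values stay level.

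Whether a window effect differed between IP and total testis was tested as an interaction. No member was called by limma, and 8 of all genes (0.0511%) were, with 5 members and 693 of all genes at an unadjusted p under 0.05. With the replicate as a block within each fraction, Aldh3b1 (adjusted p = 0.0118) and Aldh1a7 (adjusted p = 0.0469) were called, against 2.31% of all genes, and with IP and total arrays paired neither was (0.429 and 0.445). In IP, Aldh3b1 and Aldh1a7 were not called over the windows and had amplitudes of 0.30 and 0.18, against 0.65 and 0.74 in total testis.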

How the data were processed

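RNA was hybridised to Mouse Gene ST 1.0 arrays. The deposited values are linear intensities of probe sets summarized by RMA per the submitters' processing notes, with version, background settings and genome build not given in the sources used here. Within 4 sets of 5 arrays 4.68% to 15.6% of value pairs were exactly equal, against 6 of 3708775 pairs across sets, so each set appears normalized on its own. The sets listed 28856 and 23528 probe sets for IP and 26006 and 26013 for total testis. Differences between IP and total testis cross these sets, so SEs and p-values, which treat 10 arrays as independent, are likely too small.

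Intensities were taken as log2. Probe sets with 1 symbol (21789; 1621 had several and 5446 none) were used, with the brightest kept per gene, and 11 probe sets that name several genes of these families were left out. A gene was tested if listed in all 20 arrays with a group mean over the 25th percentile (8.2 log2), which 49 members passed in both fractions, 8 in IP alone and 1 in total testis alone. The filter favours a higher call for members that passed in IP alone, although Ces1b and Gstp3 of these were not called. Tests used limma 3.58.1 in R 4.3.3 with a mean per group (10 residual degrees of freedom), two-sided moderated tests, F tests over windows and Benjamini-Hochberg adjustment over 15651 genes at 0.05. The fit was tested on simulated data with independent arrays, an equal spread in both fractions and no set effect. Such data cannot show how the fit behaves when arrays of a set vary together. The number of arrays limits the precision, and p-values measure the spread between these samples, which may be technical.

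An IP and a total array of equal window and number came from 1 testis per the labels' protocols. Their deviations between replicates correlated at 0.475, 0.30, 0.519, 0.302 and 0.397 in the 5 windows. The highest correlation with total testis of another window was 0.406, 0.056, 0.074, 0.132 and 0.247 in the same order, close to the same-window value in XII-II/III. The numbers were taken as pairs. For total testis XII-II/III replicate 1 the source label reads X-II/III, and the title was followed. Alternatives were quantile normalization, median centring, other filters, the mean of probe sets, array weights, replicate and set blocks, each replicate or fraction alone and leaving out each array. Fits of 1 fraction with a block were added after seeing the data. Members and lists were chosen with earlier results of these data known. Values were given in full for members called over windows and, per family, for those with the largest pair and the smallest difference; the others named here were chosen after their values were seen. Other marker lists read, as higher, lower and tested with the median difference, 1, 7 and 8 for macrophages (-0.63), 1, 5 and 7 for peritubular myoid cells (-0.75), 2, 1 and 6 for endothelium (-0.04), 1, 2 and 5 for spermatogonia (0.06) and 0, 0 and 1 for erythroid cells (-0.35).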

Additional observations from a re-analysis of the deposited data

Results flagged for a closer look

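A difference between the window effects of IP and total testis was found for Aldh3b1 (limma adjusted p = 0.0118) and Aldh1a7 (adjusted p = 0.0469) when the replicate number was a block within each fraction. Without the block the adjusted p was 0.495 and 0.66, and with IP and total arrays paired it was 0.429 and 0.445. Both genes read higher in total testis in II/III-VI and VI-VIII and were not called over the windows in IP.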

How the results depend on the processing

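The 45 members higher in IP numbered 41 to 48 over the alternatives that tested the same 58 members, and 44 to 46 when 1 array was left out. With the 50th percentile filter 40 of 47 members were higher, and with no filter 48 of 64. The 7 lower numbered 11 after quantile normalization, 14 after median centring and 11 with the replicate 1 arrays alone. They numbered 6 with the random block and 5 of 47 with the 50th percentile filter, and stayed at 7 with any array left out. Members with a window effect in IP, 3 in the reported fit, numbered 5 after quantile normalization, 0 with array weights, 7 with the replicate block, and 1 in the fit of IP arrays alone with or without the block (2 to 3 with 1 array left out). In total testis 7 became 11 after median centring, 16 with array weights, 15 with the replicate block, 13 with total testis arrays alone and 14 there with the block (5 to 9 with 1 array left out). The interaction, with no member called, gave 1 after quantile normalization, 2 after median centring and 2 with the replicate block within fraction (0 with any array left out). With the replicate 2 arrays alone Sult4a1 and Gstt3 both reversed to 0.11, and with the replicate 1 arrays alone Akr1c13 (-0.19), Ces1b (-0.04), Ces3a (-0.24), Ces5a (-0.11) and Gstp3 (-0.20) turned below 0. The cause of these moves was not tested. Beyond those named, the replicate block changed no call. Median centring turned the sign of 8 members (Akr1c13, Ces1b, Ces3a, Ces4a, Ces5a, Gstp3, Gstt2 and Sult5a1) and quantile normalization that of 4 (Ces3a, Ces5a, Gstp3 and Gstt2), all from above to below 0. The peak window in total testis moved to an adjacent window in 1 or 2 fits without 1 array for Aldh3b1, Gstk1, Gstt2, Gstt3 and Mgst1. Dim members near the floor of 8.2 log2, such as Ces1a, Ces3a and Sult4a1, are the least certain to stand above background, for which the files give no measure.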
